A study of Drosophila melanogaster with 3 samples.

Results

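The respiratory chain and the ATP synthase are built from 5 protein complexes of the inner mitochondrial membrane, and nuclear genes of these complexes were examined here for binding of the transcription factor tap in Drosophila melanogaster embryos. The members were the protein-coding genes whose symbols start with ND-, COX followed by a digit, UQCR-, Sdh or ATPsyn, on the major chromosome arms of the Ensembl annotation. There were 88 members among 13945 protein-coding genes: 40 of complex I (ND-), 8 of complex II (Sdh), 9 of complex III (UQCR-), 16 of complex IV (COX) and 15 of complex V (ATPsyn). Sdhaf3, counted in complex II, encodes an assembly factor and was kept because its symbol fits the rule. The symbols of 24 members end in L or in L and a digit and mark paralogues of a subunit gene. The L of ND-MNLL belongs to the name of the subunit, and this gene was counted with the 64 other members.

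The material was 3 biological replicates of whole embryos of mixed sex, 6 to 16 h old, from 1 transgenic line that stably expresses tap with GFP fused to its C-terminus. Chromatin was immunoprecipitated with an anti-GFP antibody, and libraries of 200 to 800 bp were sequenced. All samples belong to this 1 group, so no condition was compared, and 1 control alignment serves all replicates, per the deposited notes. Peak lists were available and read depth is unknown: each replicate list and the list of the pooled replicates held 30000 peaks, and the set that passed the irreproducible discovery rate, called the thresholded set, held 4336. The sources used here do not say what drives the fusion gene in this line or whether the unmodified gene is present as well. Whole embryos mix many cell types, and the lists do not tell in which of them a site was bound.

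Complex I passes electrons from NADH, and complex II from succinate, to ubiquinone. Complex III hands them on to cytochrome c, complex IV (cytochrome c oxidase) gives them to oxygen, and complex V (ATP synthase) uses the resulting proton gradient to make ATP. The chain is at work in nearly all cells, and complexes I, III, IV and V also contain subunits encoded by mitochondrial DNA, which are not members here. The protein tap is a neurogenin-related factor with a basic helix-loop-helix domain. Factors of this class bind E-boxes, written CANNTG.

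The sequences of 7 peaks near members are shown first, because the composition of the summit was the feature that most of the members' peaks had in common. Each runs 50 bp to either side of the summit, 5′ to 3′ on the strand of the member, from the RefSeq copy of the dm6 assembly, and the capitals mark runs of at least 8 A or T. None of the 7 windows overlaps an annotated exon. Peaks within 500 bp of the member's transcription start site (TSS) are those of ND-ASHI at chrX:6679324-6679424 (minus strand), ND-SGDH at chr3L:12138640-12138740 (minus), COX4 at chr2L:19958590-19958690 (plus) and COX7B at chr3L:17425321-17425421 (plus). Peaks further away, all near L paralogues, are those of COX7AL2 at chr2L:2201187-2201287 (minus), UQCR-6.4L at chr3L:16567716-16567816 (plus) and ND-20L at chr3R:29522356-29522456 (plus).
ND-ASHI: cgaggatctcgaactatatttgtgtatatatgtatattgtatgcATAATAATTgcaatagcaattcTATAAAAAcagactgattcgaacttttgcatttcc
ND-SGDH: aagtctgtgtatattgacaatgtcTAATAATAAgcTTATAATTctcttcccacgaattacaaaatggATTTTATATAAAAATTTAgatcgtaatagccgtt
COX4: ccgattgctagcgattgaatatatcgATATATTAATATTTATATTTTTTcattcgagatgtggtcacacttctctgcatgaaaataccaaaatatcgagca
COX7B: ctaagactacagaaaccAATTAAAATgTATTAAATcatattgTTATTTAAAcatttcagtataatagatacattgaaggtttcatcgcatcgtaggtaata
COX7AL2: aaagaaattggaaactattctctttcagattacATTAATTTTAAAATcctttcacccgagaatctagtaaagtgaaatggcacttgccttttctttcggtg
UQCR-6.4L: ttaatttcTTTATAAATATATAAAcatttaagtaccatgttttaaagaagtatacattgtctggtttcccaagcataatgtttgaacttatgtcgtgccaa
ND-20L: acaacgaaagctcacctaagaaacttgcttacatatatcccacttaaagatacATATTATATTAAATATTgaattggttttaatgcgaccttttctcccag
All 7 hold such a run. Runs of this kind are not particular to members: they were found at 14 of the 15 member summits and at 77.4% of all thresholded peaks. The member summit without one, that of ATPsynC, is not among the 7. The longest printed run is 23 bases in COX4, 18 in ND-SGDH, 17 in ND-20L, 16 in UQCR-6.4L, 14 in COX7AL2, and 9 in both ND-ASHI and COX7B. The window of COX4 also holds TATCGATA, the core of the DNA replication-related element (DRE), from position 22 and GGTCACAC, the core of the Ohler 1 core-promoter motif, from position 62, counted from 1 at the 5′ end.

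Members carried tap-eGFP peaks at their own promoters about as often as protein-coding genes at large, and were somewhat less often the gene nearest to a peak. By the first rule, which gives a summit to the closest protein-coding TSS, 13 of 88 members (14.8%) had a peak of the thresholded set, beside 18.9% of all genes. When a summit had to lie within 500 bp of the gene's own TSS, whatever gene was nearest, 11 members (12.5%) had one, beside 13.9% of all genes. In the longer pooled list, 38 members (43.2%) were nearest to a peak, beside 48.2% of all genes, and 33 (37.5%) had a summit at their own TSS, beside 37.8%. In the full replicate lists a summit lay at the own promoter of 40.9%, 50% and 46.6% of members, beside 40.8%, 43% and 45.7% of all genes. The count at own promoters was thus near the background in these lists. When a thresholded peak was kept only if both remaining replicates held it among their strongest, 7 members had a peak without replicate 1, 7 without replicate 2 and 10 without replicate 3 (7.95%, 7.95% and 11.4%, beside 12.1%, 12.4% and 14.8% of all genes).

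The thresholded set gives 1 value with no error, so the spread came from equally long lists, the 4336 strongest peaks of replicates 1, 2 and 3. The share of members nearest to such a peak was 15.9% in replicate 1, 14.8% in replicate 2 and 13.6% in replicate 3, beside 19.2%, 19.5% and 19% of all genes. The mean was 14.8 ± 1.14% for members, against 19.3 ± 0.232% for all genes (SD, n = 3), and the members were lower by 4.48 ± 1.08 percentage points, in 3 of 3 replicates. At own promoters the shares of members were 12.5%, 12.5% and 13.6%, beside 15.1%, 15.3% and 14.3% of all genes. That difference was smaller, 12.9 ± 0.656% for members against 14.9 ± 0.567% for all genes, and also had the same sign in 3 of 3 replicates. An exact two-sided sign-flip permutation test over 3 replicates gave p = 0.25 for both differences, the smallest that 3 replicates allow, so no difference of this kind can pass a threshold here. The replicates are separate biological samples per the labels, and their spread does not include differences between lines or controls. The length of genome lying nearest to the gene's TSSs, which sets how many summits a gene can collect under the nearest-TSS rule, had a median of 2490 bp for members and 4246 bp for all genes, and its part in the difference was not tested.

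**Figure D1:**
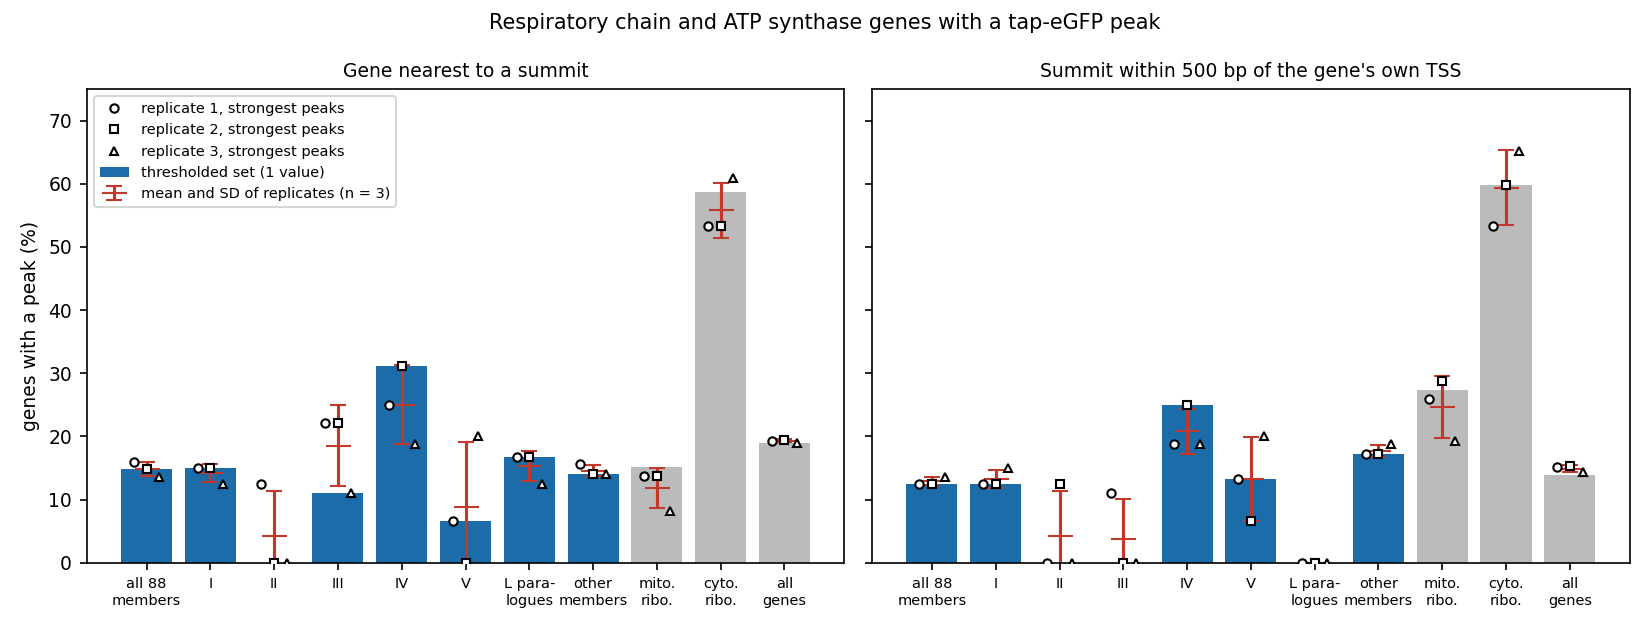
Percentage of genes with a tap-eGFP peak (y axis) for all members, each complex, L paralogues and other members (blue) and for mitochondrial ribosomal protein genes, cytoplasmic ribosomal protein genes and all protein-coding genes (grey), by nearest TSS (left) and by a summit within 500 bp of the gene's own TSS (right). Bars are the thresholded set, open symbols the 4336 strongest peaks of each replicate, and red marks their mean and SD (n = 3); the bar of complex IV is the highest among the complexes (31.2% and 25.0%), and L paralogues are at 0 in the right panel.

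The other large gene families of mitochondria and translation gave a scale for these shares. Genes of cytoplasmic ribosomal proteins had a thresholded peak at their own promoter in 55 of 92 cases (59.8%), and genes of mitochondrial ribosomal proteins, which translate the mitochondrial subunits of the same complexes, in 20 of 73 (27.4%). In the replicates, members were at 12.9 ± 0.656% against 59.4 ± 5.99% for cytoplasmic and 24.7 ± 4.94% for mitochondrial ribosomal protein genes (SD, n = 3). The members' share at own promoters was lower than that of either family in 3 of 3 replicates, by 46.5 and 11.8 percentage points on average (exact p = 0.25 each, the smallest possible). By nearest TSS, members were higher than mitochondrial ribosomal protein genes in 3 of 3 replicates, at 14.8 ± 1.14% against 11.9 ± 3.16%, but in the thresholded set the shares were 14.8% against 15.1%. The median length of genome nearest to the TSSs was 1522 bp for mitochondrial ribosomal protein genes.

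Complex IV had the largest share of genes with a peak in the thresholded set. In the pooled list complexes III (66.7%) and II (62.5%) stood above complex IV (43.8%), which was also under all genes (48.2%). In replicate 3 complex V (20.0%) was above complex IV (18.8%), beside 19.0% of all genes. Of the 16 complex IV genes, 5 (31.2%) were nearest to a thresholded peak, beside 18.9% of all genes. At their own promoter 4 (25.0%) had one, beside 13.9% of all genes. In the replicates, 25.0%, 31.2% and 18.8% of complex IV genes were nearest to a strong peak, against 15.0%, 15.0% and 12.5% of complex I genes. The difference of 10.8 ± 5.05 percentage points had the same sign in 3 of 3 replicates (exact p = 0.25, the smallest possible). Against all genes, complex IV was higher in 2 of 3 replicates only (25.0 ± 6.25% against 19.3 ± 0.232%, exact p = 0.5). Leaving out replicate 1 or 2 in the way described left 3 of the 5 complex IV genes, and leaving out replicate 3 left 4. With 16 genes, a single gene more or less moves these shares by as much as their SD.

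The strongest peak assigned to any member was that of COX7C, which encodes a small subunit embedded in the membrane part of cytochrome c oxidase. Its summit ranked 274, 326 and 717 in replicates 1, 2 and 3 and 361 in the thresholded set, with a signal of 719.9 as given by the authors' peak caller. It lay 1993 bp upstream of the COX7C TSS, at chr2R:10046237-10046520, in an intron of oys, a gene for a phospholipid acyltransferase. A weaker peak, of rank 3771, lay 262 bp from the COX7C TSS but 4 bp from that of oys. COX7C thus had a strong distal peak and a weak one that sits on its neighbour's start.

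The other complex IV peaks at promoters were weaker. COX5A, a matrix-side subunit that joins the complex early in assembly, had a summit with ranks of 3090, 3856 and 3370 in the replicates. It lay 87 bp upstream of the nearest COX5A TSS but inside the gene, downstream of the gene start at chr3R:11819359. COX4, the subunit that pairs with COX5A and through which ATP regulates the enzyme in mammals, had a summit 73 bp upstream, with ranks of 2752 in replicate 1 and 4208 in replicate 2. Replicate 3 held no summit within 200 bp of it, but one of rank 6488 within 500 bp of the COX4 TSS. COX7B, another small membrane subunit, had a summit 106 bp upstream, with ranks of 5364, 7400 and 3150. These 3 peaks ranked 2905, 3799 and 4198 of 4336 in the thresholded set, all in its weaker part. The fifth gene, COX7AL2, a paralogue of COX7A, had only distal peaks and is described with the L paralogues.

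Complex I had a peak at about the same rate as the members as a whole. Of its 40 genes, 6 (15.0%) were nearest to a thresholded peak and 5 (12.5%) had one at their own promoter, beside 18.9% and 13.9% of all genes. The 5 with a promoter peak were ND-ASHI, ND-MWFE, ND-SGDH, ND-MNLL and ND-B22, the fly counterparts of human NDUFB8, NDUFA1, NDUFB5, NDUFB1 and NDUFB9. All 5 encode accessory subunits of the membrane arm, which do not carry electrons. None of the 7 nuclear genes for the catalytic core (ND-75, ND-51, ND-49, ND-30, ND-24, ND-23 and ND-20), a list made after the values were seen, had a peak in the thresholded set or in the pooled list by either rule, where all genes had one in 18.9% and 13.9% (thresholded) and 48.2% and 37.8% (pooled) of cases. Among the strongest peaks of the replicates the core was at 14.3% on average by both rules, close to complex I as a whole (14.2% and 13.3%). In the full replicate lists, 4 core genes had a promoter summit, none of them in all 3. ND-51, the NADH-binding subunit, had one of rank 3551 in replicate 1 and 1103 in replicate 3. ND-24 had one of rank 5392 in replicate 2 and 3287 in replicate 3. ND-75 had one of rank 9449 in replicate 1 and 24645 in replicate 3, and ND-20 one of rank 14152 in replicate 2 and 19717 in replicate 3. No difference between core and accessory genes is read from these counts. Without replicate 1 or 2, 3 of the 6 complex I genes kept a peak, and without replicate 3, 5 did.

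ND-ASHI had the strongest promoter peak of any member. Its summit ranked 569, 632 and 332 in the replicates and 497 in the thresholded set (signal 614.4) and lay 256 bp upstream of the ND-ASHI TSS at chrX:6679261-6679501. It also lay 266 bp from the TSS of Fum1, which encodes fumarase, the enzyme after succinate dehydrogenase in the citric acid cycle, and inside the Fum1 gene. Of the other 4, ND-MWFE had the next strongest peak, of rank 1355, 1326 and 619 in the replicates and 990 in the thresholded set. It lay 153 bp from the ND-MWFE TSS and 68 bp from that of TppII, a gene for a large cytosolic peptidase. These 2 promoter peaks were high in all 3 replicates.

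The remaining complex I promoter peaks varied widely between replicates. ND-SGDH had ranks of 5412, 1388 and 10525, ND-B22 had 3150, 2541 and 5931, and ND-MNLL had 3017, 2073 and 17922. In each of these 3 genes replicate 3 gave the lowest place. ND-B14.7, the counterpart of NDUFA11, another accessory subunit of the membrane arm, had no promoter peak in the thresholded or pooled list but 2 distal thresholded ones, 2673 and 8916 bp downstream of its TSS on arm 2R. Their ranks were 1775, 4136 and 1266 for the nearer and 2613, 2465 and 3002 for the farther. A long noncoding RNA gene, lncRNA:CR45148, was closer to both, and ND-B14.7 was nearest only among protein-coding genes.

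Complexes II, III and V are small, and a few genes set their shares. In the replicates, the share of genes nearest to a strong peak was 12.5%, 0% and 0% in complex II, 22.2%, 22.2% and 11.1% in complex III and 6.67%, 0% and 20.0% in complex V, beside 19.2%, 19.5% and 19% of all genes. Complexes III and V thus overlapped the background, and complex II stayed under it. Complex II had no thresholded peak by either rule. In the pooled list, however, 5 of its 8 genes (62.5%) were nearest to a peak, beside 48.2% of all genes. Promoter summits of the pooled list among its 10000 strongest belonged to SdhB, the iron-sulfur subunit (rank 8646), SdhD, a membrane anchor (9393), and SdhC, the other anchor (5841), the last being closer to the TSS of Tctp. SdhA, the flavoprotein that oxidises succinate, had a pooled peak of rank 6185, 1219 bp from its TSS. The peaks near complex II were therefore listed but fell outside the thresholded set.

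In complex III, 1 of 9 genes was nearest to a thresholded peak, the paralogue UQCR-6.4L, and none had one at its promoter. UQCR-14, a small subunit on the matrix side, came close, with a pooled rank of 4369 for a summit 897 bp from its TSS. Its best summit ranked 4545 in replicate 1 and 3873 in replicate 2, 841 and 898 bp from the TSS, and 6627 in replicate 3, where it was another summit, 3 bp from the TSS. UQCR-Q, another small subunit, had a pooled promoter summit of rank 6451. The genes of the core proteins differed, since UQCR-C2 had a pooled promoter summit of rank 13071 and UQCR-C1 had a summit in no list.

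In complex V, 1 of 15 genes (6.67%, beside 18.9% of all genes) was nearest to a thresholded peak. At their own promoter, 2 (13.3%, beside 13.9% of all genes) had one. The first, ATPsynC, encodes the subunit of the rotating ring through which protons pass. Its summit lay 3 bp from the TSS and ranked 7820, 28038 and 1256 in the replicates, the widest spread among the members' thresholded peaks. The second, ATPsynCF6, encodes coupling factor 6 of the peripheral stalk. Its summit lay 114 bp from its TSS but 100 bp from that of Sec13, a coat protein gene, and ranked 2332, 2080 and 1433. The peak that counts for complex V by nearest TSS was thus the less steady of the pair, and it was lost whichever replicate was left out. ATPsynbeta, the catalytic subunit, had pooled summits of rank 7087 and 7469 within 500 bp of its TSSs. The first lay 494 bp away but 15 bp from the TSS of CG11076. The second was listed in replicate 1 alone, at rank 3989.

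**Figure D2:**
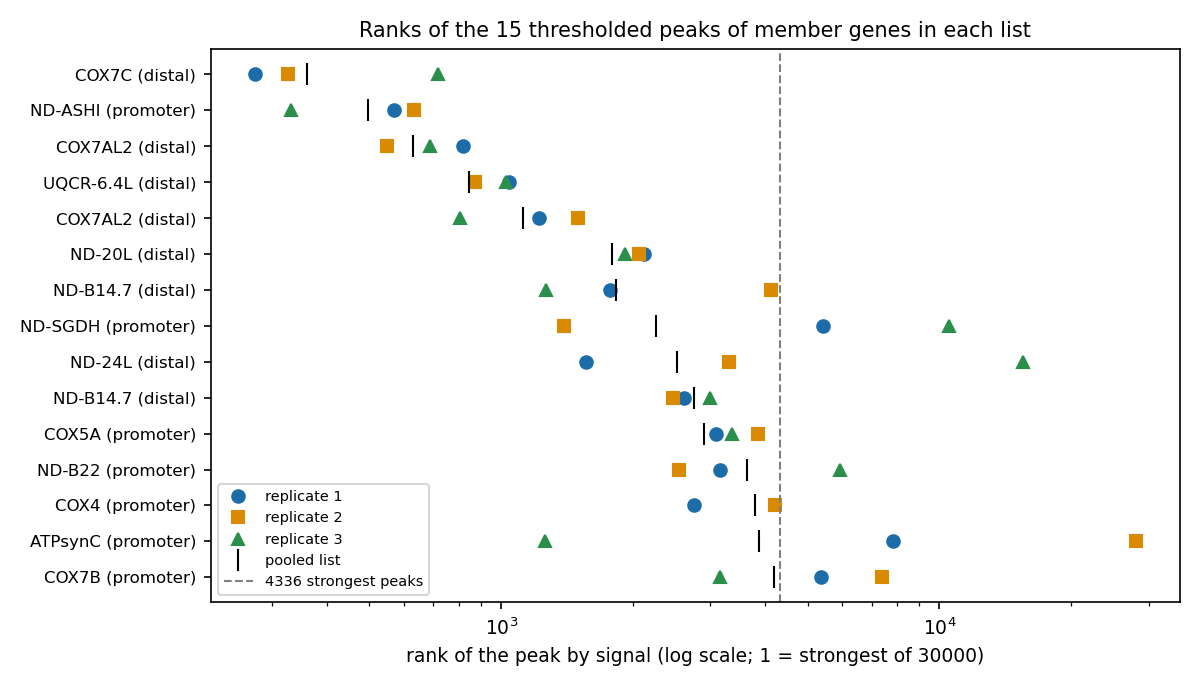
Rank by signal (x axis, log scale, 1 is the strongest of 30000) of the 15 thresholded peaks of members, in rows from strongest to weakest, in replicates 1, 2 and 3 (circles, squares, triangles) and in the pooled list (black ticks). Distal peaks lie mostly left of the dashed line at rank 4336 in all replicates, whereas ND-SGDH, ATPsynC and COX7B cross it in 2 replicates each and COX4 has no mark for replicate 3.

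Most distal peaks of members, and fewer of their promoter peaks, were strong in all replicates. By nearest TSS the 13 members held 15 thresholded peaks, of which 7 were within 500 bp of a TSS and 8 were distal. Of these 15, 14 were listed in all 3 replicates and 9 were among the 4336 strongest in all 3. The 9 comprised 7 of the 8 distal peaks and 2 of the 7 promoter peaks, those of ND-ASHI and COX5A. Counting every thresholded summit at a member's own TSS, also those nearer to another gene, 4 of 11 were, with ND-MWFE and ATPsynCF6 added. Over the whole thresholded set, 49.4% of peaks were among the strongest in all 3 replicates, 49.9% of distal and 48.6% of promoter-proximal peaks. The rank of the members' 7 promoter peaks by nearest TSS moved with this: their median rank was 3641 by gene, beside 1709 for the 1261 genes with such a peak. The own-promoter summits nearer to another gene are not in this median. They ranked 990 (ND-MWFE), 1822 (ATPsynCF6), 2659 (ND-MNLL) and 3771 (COX7C). The part of rank in the difference was not tested.

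By nearest TSS, the members with the strongest peaks were mostly those with distal ones. The median rank of the best peak was 2255 over the 13 members with a peak, beside 1729 over the 2641 genes with one. The values ranged between 361 for COX7C and 4198 for COX7B. Among members with a promoter peak, ND-ASHI at 497 stood apart from the next by nearest TSS, ND-SGDH at 2255. The share of promoter-proximal peaks was 41.2%, 38.9% and 41.2% of the members' strong peaks in the replicates, against 44.5%, 43.5% and 42.0% of all strong peaks. It was higher for members in the thresholded set (46.7% against 41.2%) and in the pooled list (28.9% against 25.2%), so the direction differed between lists.

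**Figure D3:**
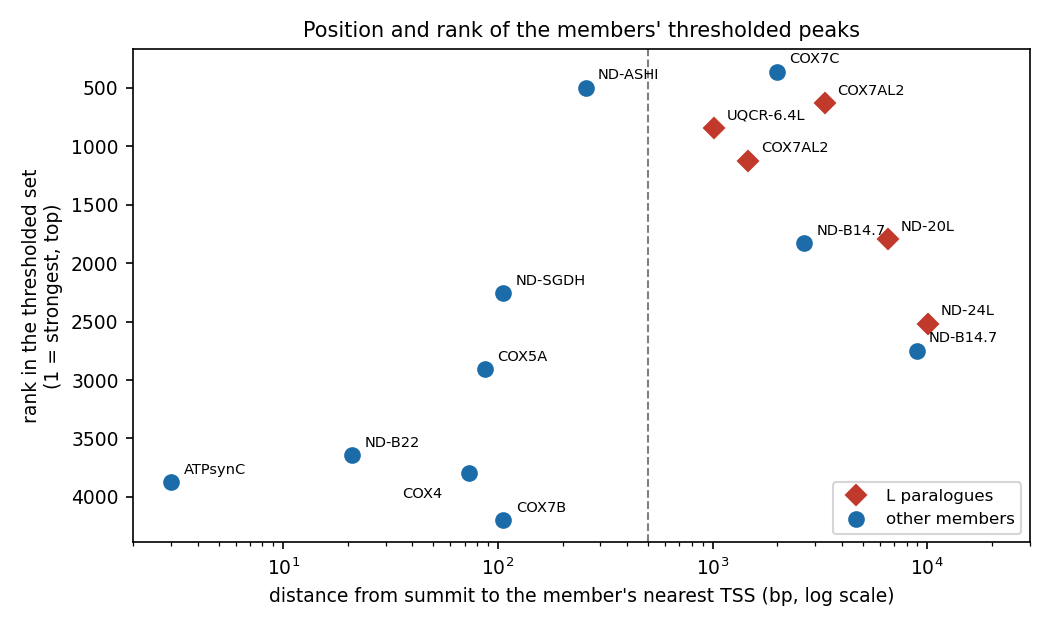
Distance from the summit to the member's nearest TSS (x axis, bp, log scale) and rank in the thresholded set (y axis, strongest at the top) of the 15 member peaks. The dashed line marks 500 bp; the 5 peaks of L paralogues (red diamonds) all lie to its right, and 6 of the 7 promoter peaks of other members (blue circles) rank beyond 2000.

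Peaks lay in different places for L paralogues and for the other members. Many paralogues of this kind in Drosophila are known as duplicates of a subunit gene with narrower expression, often in the testis. By nearest TSS, 4 of 24 L paralogues (16.7%) had a thresholded peak, against 9 of 64 other members (14.1%), and in the replicates the shares were 15.3 ± 2.41% against 14.6 ± 0.902% (SD, n = 3; exact p = 0.75). At own promoters, 0 of 24 L paralogues had a thresholded peak, against 11 of 64 other members (17.2%). Over all genes the thresholded shares were 18.9% by nearest TSS and 13.9% at own promoters, and the replicate means 19.3% and 14.9%. Other members were thus above all genes at their own promoters, and L paralogues under them. The share at own promoters was 0 for L paralogues in each replicate, against 17.2%, 17.2% and 18.8% of other members. The difference was -17.7 ± 0.902 percentage points in 3 of 3 replicates (exact p = 0.25, the smallest possible). L paralogues had a longer stretch of genome nearest to them, with a median of 4824 bp against 2253 bp, and the part of this in their distal peaks was not tested.

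The 5 distal peaks of L paralogues lay between 1016 and 10127 bp from the TSS. COX7AL2 had a pair of intergenic peaks upstream, 3325 bp away with ranks of 819, 548 and 688 and 1467 bp away with ranks of 1221, 1494 and 807. UQCR-6.4L had a peak 1016 bp downstream of its TSS, in an intron of Mipp1, a gene for an inositol phosphate phosphatase, with ranks of 1041, 870 and 1027. ND-20L, a paralogue of a core subunit of complex I, had an intergenic peak 6593 bp downstream, with ranks of 2114, 2067 and 1919. The peaks of UQCR-6.4L and ND-20L and the farther one of COX7AL2 had the smallest SD of rank over replicates (94.9, 102 and 136, n = 3) among the 14 member peaks listed in all 3. ND-24L had one 10127 bp downstream with ranks of 1561, 3315 and 15513, and the microRNA gene mir-219 was closer to it, at 4322 bp. The parent genes ND-20 and ND-24 had no pooled peak.

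**Figure D4:**
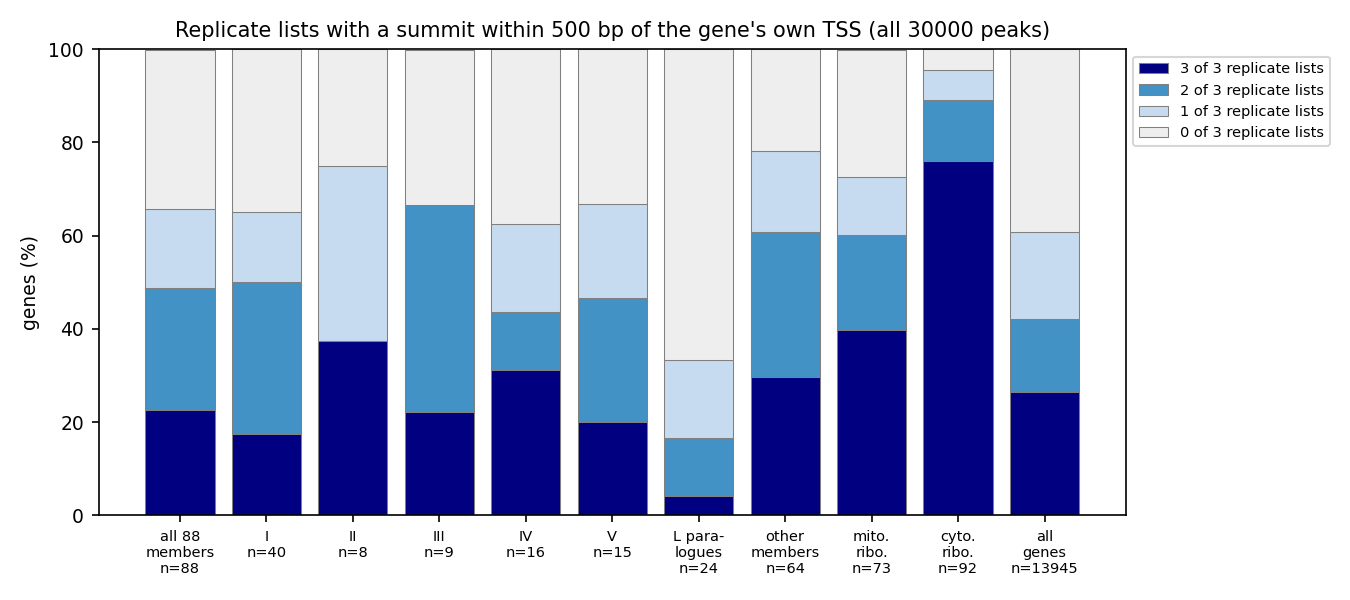
Percentage of genes (y axis) whose own promoter, within 500 bp of a TSS, held a summit in 0, 1, 2 or 3 of the 3 full replicate lists of 30000 peaks, for all members, each complex, L paralogues, other members, both ribosomal protein families and all protein-coding genes. L paralogues have the tallest top segment, with 66.7% in no list, and cytoplasmic ribosomal protein genes the tallest bottom segment, with 76.1% in all 3.

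The full replicate lists extended the same pattern to weak signals. The own promoter held a summit in all 3 full lists for 20 of 88 members (22.7%), beside 26.4% of all genes, and in none for 30 members (34.1%), beside 39.1%. Among L paralogues, 16 of 24 (66.7%) had no promoter summit in any list and 1 (4.17%), UQCR-6.4L, had one in all 3. Among the other members, 14 of 64 (21.9%) had none and 19 (29.7%) had one in all 3. By complex, the share with a summit in all 3 lists was 17.5% in complex I, 37.5% in II, 22.2% in III, 31.2% in IV and 20.0% in V. Of all 88 members, 13 had a thresholded peak by nearest TSS, 25 had a peak in the pooled list only, 24 were nearest to a peak of at least 1 replicate list but none of the pooled list, and 26 were nearest to no peak in any list. The last group included ND-23, ND-30, ND-49, UQCR-C1, COX8 and ATPsynO. Over all genes, 18.9% were nearest to a thresholded peak and 48.2% to a pooled one, and the further split was not made. This split by nearest TSS does not show which promoters lack a peak. ND-MWFE was in the last group, ATPsynCF6 in the group before it and ND-MNLL in the pooled-only group. Each nevertheless had a thresholded summit at its own TSS (ranks 990, 1822 and 2659) that was nearer to another gene. Pooled summits among the 10000 strongest, outside the thresholded set and not yet named, lay within 500 bp of the TSSs of COX6B (rank 6064), ATPsynepsilonL (6123), COX7AL2 (7121), COX5B (7211), UQCR-6.4L (8306) and ATPsyndelta (9640). Of these, 3 were closer to a neighbour's TSS. They were those of COX7AL2 (492 bp, but 85 bp from CG10874), ATPsyndelta (483 bp, but 113 bp from Ypel) and COX5B (151 bp, but 147 bp from IFT52). Further such summits of genes that also have a thresholded promoter peak were those of ATPsynC (5739), ND-ASHI (7142) and COX7C (9302).

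Most of the members' promoter peaks were shared with a gene on the opposite strand. Of the 11 members with a thresholded summit at their own TSS, 8 (72.7%) had a second protein-coding gene, on the opposite strand, whose TSS was also within 500 bp of the summit, beside 44.4% of the 1936 genes with a promoter peak. For genes of mitochondrial ribosomal proteins this share was higher, 85.0%, and for those of cytoplasmic ribosomal proteins it was 40.0%. The pairs were ND-ASHI and Fum1, ND-MWFE and TppII, ND-SGDH and RhoGAP68F, ND-MNLL and p115, COX5A and glo, COX7B and Sec3, COX7C and oys, and ATPsynCF6 and Sec13. The partners include a GTPase-activating protein (RhoGAP68F), an RNA-binding protein (glo), an exocyst subunit (Sec3) and a vesicle tether (p115). In 4 of the 8 pairs (ND-MWFE, ND-MNLL, COX7C and ATPsynCF6) the partner's TSS was the closer. ND-B22, COX4 and ATPsynC had no such partner.

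Paired starts were common among the members at large. An opposite-strand protein-coding TSS lay within 500 bp of the TSS of 40 of 88 members (45.5%), beside 27.8% of all genes, and of 3 of 24 L paralogues (12.5%). Genes of mitochondrial ribosomal proteins had one in 72.6% of cases and those of cytoplasmic ribosomal proteins in 39.1%, so paired starts are not particular to the members. Among these 40 members 8 (20.0%) had a thresholded promoter peak, beside 22.5% of all genes with such a neighbour. Among the other 48 members 3 (6.25%) had one, beside 10.6% of all genes without such a neighbour. In both classes the members were slightly under the background, and which gene of a pair a peak belongs to cannot be told from peak lists. This comparison was added after the values were seen.

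The summits near members were poor in G and C. Mean GC content in the 100 bp about the 15 thresholded summits was 30.0%, against 44.5% in windows of the same size centred 500 bp to each side, and the summit was lower in 14 of 15 peaks. The difference was -14.5 percentage points, beside -10.2 for all thresholded peaks. Promoter-proximal peaks (-14.8) and distal peaks (-14.2) of members differed little in it. The exception was ATPsynC, with 45.0% at the summit against 35.5% in the flanks, which was also the peak with the widest spread of ranks. Among the members' strong peaks of each replicate the difference was -14.0, -10.5 and -6.21 percentage points, a mean of -10.2 ± 3.9 (SD, n = 3), with the GC-richest summits in replicate 3 (39.4%, against 30.8% in replicate 1 and 32.4% in replicate 2).

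The low GC content at the summits took the form of unbroken A/T runs like those printed in capitals. The longest run within 50 bp of the summit had a median of 15 bases over the members' 15 peaks, against 7 in the flanks, beside 10 and 8 over all thresholded peaks. A run of at least 8 bases was found at 14 of 15 summits (93.3%), beside 77.4% of all thresholded peaks. The exception was again ATPsynC, where the longest run was 5 bases. The control libraries were not analysed here, and their coverage of such sites was not tested.

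**Figure D5:**
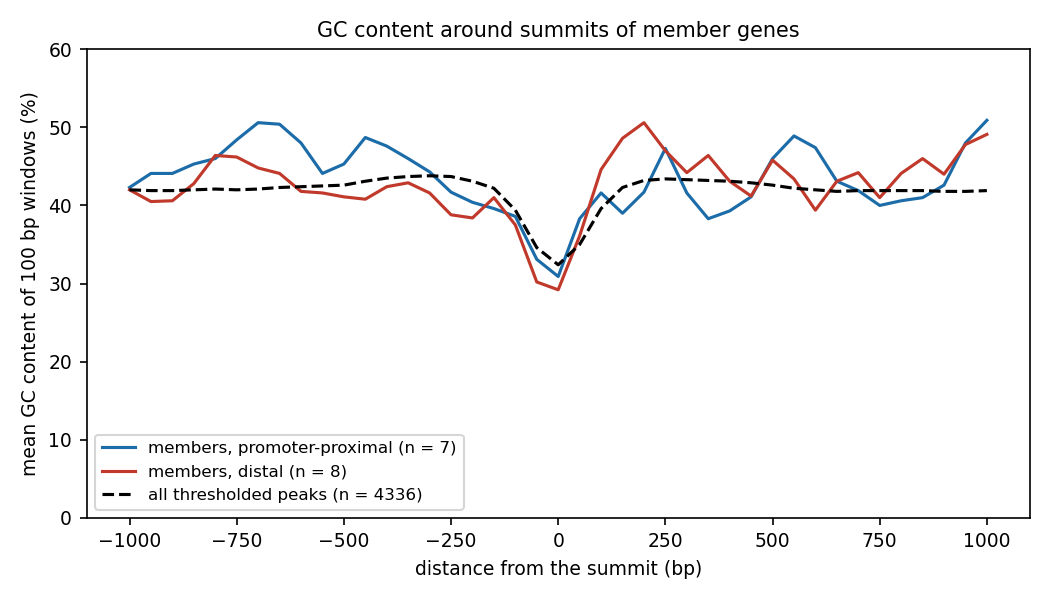
Mean GC content (y axis, percent) of 100 bp windows by distance from the summit (x axis, bp) for the 7 promoter-proximal (blue) and 8 distal (red) thresholded peaks of members and all 4336 thresholded peaks (dashed). All lines dip at the summit, to 30.9%, 29.2% and 32.4% at the centre; the lines of members are rough because few peaks enter them.

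E-boxes of any form were somewhat less frequent at all thresholded summits than in their flanks, and the member peaks are too few to set them apart from this. Within 100 bp of the summit, 8 of 15 member peaks (53.3%) held a CANNTG on either strand, against 63.3% of the flanking windows, and over all thresholded peaks the figures were 59.8% and 65.3%. Distal peaks of members held one in 6 of 8 cases (75%, against 62.5% of flanks) and promoter-proximal peaks in 2 of 7 (28.6%, against 64.3%). Over all thresholded peaks both classes were under their flanks, distal peaks at 61.3% (65.6% of flanks) and promoter-proximal peaks at 57.7% (64.8%). The form CATATG was found at 3 distal summits, those of COX7C, UQCR-6.4L and ND-B14.7 (37.5%, against 12.5% of flanks). Over all distal thresholded peaks it was found at 9.37% (8.12% of flanks). CAGCTG was found at none of the 15 (against 13.3% of flanks), beside 7.24% of all thresholded peaks (9.55% of flanks). With so few member peaks, no distal feature is read from these counts. Summits and flanks also differ in GC content, and the part of this in the counts was not tested. CATATG and CAGCTG are special cases of CANNTG. A match is only a match of letters, and no match says nothing about binding.

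In the promoters themselves, taken as 250 bases before to 50 after the gene start, the Ohler 1 core was more frequent in members than in all promoters. GGTCACAC was found on either strand in 16 of 88 member promoters (18.2%), beside 7.7% of all 13945 promoters. It was found in 5 of the 11 members with a thresholded promoter peak (COX4, COX5A, COX7B, ATPsynC and ND-MWFE), beside 10.8% of all genes with a promoter peak. In 15 cases it was in other members (23.4% of 64) and in 1 case in an L paralogue, COX7AL. The DRE core TATCGATA was found in 10.2% of member promoters, beside 9.36% of all, the Ohler 7 core CATCNCTA in 7.95%, beside 6.42%, and GCGCATG, a part of the site of NRF-1 (a regulator of respiratory genes in mammals), in 3.41%, beside 2.52%. CAGCTG was found in 23.9%, beside 17.7%, CATATG in 6.82%, beside 7.82%, any CANNTG in 78.4%, beside 77.2%, and GAGAGAG in 1.14%, beside 5.87%. In promoters of mitochondrial and cytoplasmic ribosomal protein genes, CAGCTG was found in 54.8% and 9.78% and GAGAGAG in 1.37% and 0.0%. CAGCTG and CATATG are counted again within CANNTG, and the other motifs share no such nesting. Among the 11 members with a promoter peak, 5 (45.5%) had any E-box, against 64 of the 77 without one (83.1%), and over all genes with a promoter peak the share was 76.5%.

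Genes of the same pathway outside the symbol rule were looked at beside the members, from lists made with earlier results of these data known. Of 10 chain genes with other names, 4 were nearest to a thresholded peak and 3 had one at their own promoter. Cyt-c-p, which encodes cytochrome c, the carrier between complexes III and IV, had one 946 bp from its TSS, of rank 321, 209 and 596 in the replicates and 288 in the thresholded set. It was above the strongest member peak, that of COX7C, in the thresholded set and in replicates 2 and 3, and under it in replicate 1. Cyt-c-d, also on the list, was nearest to no thresholded peak. A stronger thresholded summit, of rank 134, nevertheless lay within 500 bp of its TSS. RFeSP, the Rieske iron-sulfur protein of complex III, was nearest to 5 thresholded peaks, the best of rank 1696 and 1806 bp away. The genes blw, the alpha subunit of ATP synthase, and cype, the COX6C subunit of complex IV, had promoter peaks of rank 1690 and 3700. Of 6 assembly factors, 1 had a peak, CIA30, which helps to assemble complex I, with a summit 98 bp from its TSS and ranks of 119, 194 and 90. Of 12 citric acid cycle genes 3 had one, Idh3g (rank 139), kdn, which encodes citrate synthase (614), and Ogdh (1075). Of 8 genes for mitochondrial gene expression and its regulators 2 had one, mtSSB (2397) and Ets97D (3438, at 12646 bp). The shares by nearest TSS in these 4 small lists were 40.0%, 16.7%, 25.0% and 25.0%, beside 18.9% of all genes. Each is made of a few genes and was not compared with that of the members.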

How the data were processed

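tap-eGFP ChIP-seq peak lists of 3 biological replicates of 1 group, of the pooled replicates and of the thresholded set were used, with coordinates in dm6 per the labels. Replicate lists were made from 1 replicate and 1 control alignment, the pooled list from 3 replicates, and the thresholded set from these by the irreproducible discovery rate, per the deposited notes. Not given in the sources used here: the aligner, the peak caller, versions and the threshold. Control libraries were not analysed here. The deposited columns used were the signal per peak, the −log10 q-value by the format of the file, and the summit offset in bp (coded as other). Signal scales differed between the deposited lists, so peaks were compared by rank within a list, and q-values served as an alternative ranking. Depth is unknown, so no interval for counting error was given.

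Genes came from Ensembl release 115 (FlyBase 6.54) on 6 chromosome arms, and sequence from RefSeq's dm6 genome. No promoter table was used: promoters were read from this genome. A summit was assigned to the nearest protein-coding TSS or, by the second rule, to every gene with a TSS within 500 bp. Summits within 200 bp matched between lists. Replicate error is the mean and SD over the 4336 strongest peaks of each replicate, with an exact sign-flip permutation test. The assignment of summits to genes, by both rules, was tested on simulated positions. Members, lists, motifs and tests were chosen with earlier results of these data known. Named were all members with a thresholded peak, by both rules, with pooled promoter ranks up to 10000 for the others. ND-20, ND-24, ND-51, ND-75, UQCR-14, UQCR-C1, UQCR-C2, SdhA and the members in no list were named after their values were seen. The symbols Coa3, Coa6 and Polg1 were not matched. Alternatives were other assignment rules, the 2168 strongest thresholded peaks, the pooled list, 2000 or 8000 strongest peaks, other windows and leaving out each replicate. Python 3.11.15, NumPy 2.4.6, pandas 2.3.3, SciPy 1.17.1 and matplotlib 3.10.9 were used.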

Additional observations from a re-analysis of the deposited data

How the results depend on the processing

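Of 71 alternative values, 40 stayed close to the reported value (counts within 1.5 times of it, the replicate mean and the GC difference within 1 SD of the replicates, motif shares within the 95% Wilson interval) and 31 moved. Among the 2168 strongest thresholded peaks, 6 members had a peak by nearest TSS, 3 of complex I, 2 of complex IV and 0 of complex V. That was 6.82% of members, beside 11.4% of all genes. In the pooled list the numbers were 38 for all members (43.2%, beside 48.2% of all genes), 14 for complex I, 5 for II, 6 for III and 6 for V. With gene bodies extended by 1000 bp, complex II had 1 and complex V 3, and the shares were 18.2% of members and 22.7% of all genes. With a summit within 500 bp of an own TSS, complex III had 0, complex V 2 and the L paralogues 0. The shares were then 12.5% of members and 13.9% of all genes. Leaving out each replicate in turn left 7 to 10 members, 3 to 5 of complex I, 3 to 4 of complex IV and 0 to 0 of complex V, and 2 to 4 promoter-proximal peaks. Leaving out replicates 1, 2 and 3 gave 7.95%, 7.95% and 11.4% of members, against 12.1%, 12.4% and 14.8% of all genes. The members' share in the replicates was 7.2% with the 2000 strongest peaks (10.8% of all genes) and 23.9% with 8000 (28.5%). The GC difference was -9.23 percentage points in 200 bp windows, beside -7.89 for all thresholded peaks. Near summits, in place of promoters, Ohler 1 was found in 6.67% and CAGCTG in 0%, beside 1.78% and 7.24% of all thresholded peaks. The replicate settings for promoter-proximal peaks and GC content, and ND-MNLL counted as a paralogue, were chosen after seeing the data. The cause of these changes was not tested, beyond fewer or more peaks entering. No paired analysis was possible because there is 1 group of samples and no other to pair it with; differences between gene sets were taken within replicates. Small complexes limit every share.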
